A study of Mus musculus with 18 samples.

Results

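Cholesterol synthesis and its control by SREBP2 were followed through the day in mouse liver with 30 genes of the 14451 in the deposited table. The genes were taken by name as the enzymes of the pathway, the parts of the SREBP2 switch and the proteins that move, store or take up sterols. Earlier results of these data were known when they were chosen. All 30 were measured and all were above the lowest value of the table in every liver. Whole livers came from wild-type (WT) male mice of 8 to 9 weeks, kept in 12 h of light and 12 h of dark with no further treatment in the labels, and were taken at zeitgeber time (ZT, hours after lights on) 1, 5, 9, 13, 17 and 21. At each of the 6 time points 5 mice were kept and the 3 with the best RNA were sequenced, so the 18 livers are 18 mice and no mouse was followed over time. ZT1, ZT5 and ZT9 lie in the light and ZT13, ZT17 and ZT21 in the dark, when mice are active and eat most of their food. The labels do not give the food intake of single mice. Values are estimated reads of poly(A) RNA on a scale of about 1000000 per liver, and depth ranged from 10268168 to 23242842 estimated reads with a median of 12078875. The median correlation between livers was 0.989 within a time point and 0.980 between time points, and no pair of livers was identical.

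The liver makes cholesterol from acetyl-CoA by way of mevalonate, isoprenoid units, squalene and lanosterol. When sterols are low in the endoplasmic reticulum, SCAP carries the membrane-bound factor SREBP2 to the Golgi, where it is cut, and the released part enters the nucleus and turns on the genes of the pathway. INSIG1 and INSIG2 hold SCAP back when sterols are plentiful, and the Insig1 gene is itself a target of the SREBP factors whereas Insig2 in liver is known for its repression by insulin.

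The promoters of 4 members are shown, those of a gene with a sterol regulatory element, the 2 INSIG genes and the SREBP2 escort. Whether their letters relate to the values below was not tested. RefSeq windows of GRCm38.p6, from 250 bases before to 50 bases after a start site, were found for 23 of the 30 members. No window was found for Fdps, Fdft1, Sqle, Npc1, Stard4, Soat2 and Scarb1. The windows are written in the direction of transcription, and capitals mark the sterol regulatory element (TCACNCCAC), the CCAAT box (ATTGG on the other strand) and the E-box (CACGTG). Hmgcs1 is at chr13:119690101-119690400 (plus strand), Insig2 at chr1:121332540-121332839 (minus strand), Insig1 at chr5:28071162-28071461 (plus strand) and Scap at chr9:110333106-110333405 (plus strand).
Hmgcs1: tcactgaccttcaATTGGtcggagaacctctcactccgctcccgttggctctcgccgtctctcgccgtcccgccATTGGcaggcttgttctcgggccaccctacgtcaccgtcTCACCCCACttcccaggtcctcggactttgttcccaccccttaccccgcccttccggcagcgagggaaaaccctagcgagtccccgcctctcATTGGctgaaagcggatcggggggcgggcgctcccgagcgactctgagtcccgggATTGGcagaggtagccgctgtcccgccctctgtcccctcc
Insig2: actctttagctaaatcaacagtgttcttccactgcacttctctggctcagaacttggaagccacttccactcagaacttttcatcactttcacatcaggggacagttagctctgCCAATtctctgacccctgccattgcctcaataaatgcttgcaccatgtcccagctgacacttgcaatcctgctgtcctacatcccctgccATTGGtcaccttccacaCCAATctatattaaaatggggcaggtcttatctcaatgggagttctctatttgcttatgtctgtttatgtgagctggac
Insig1: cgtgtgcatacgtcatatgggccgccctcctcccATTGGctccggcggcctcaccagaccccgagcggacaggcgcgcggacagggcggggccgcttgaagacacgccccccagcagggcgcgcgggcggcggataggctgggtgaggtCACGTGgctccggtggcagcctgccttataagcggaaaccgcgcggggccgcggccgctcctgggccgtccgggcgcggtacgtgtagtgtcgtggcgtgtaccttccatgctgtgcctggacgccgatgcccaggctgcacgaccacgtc
Scap: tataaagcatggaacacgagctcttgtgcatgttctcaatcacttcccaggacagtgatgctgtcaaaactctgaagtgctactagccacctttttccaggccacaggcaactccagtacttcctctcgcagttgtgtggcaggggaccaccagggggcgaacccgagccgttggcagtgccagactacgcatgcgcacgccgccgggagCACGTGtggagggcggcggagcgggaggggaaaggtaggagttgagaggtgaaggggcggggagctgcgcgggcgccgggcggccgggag

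The sterol regulatory element was searched only as the letters TCACNCCAC. It was found in 1 of the 23 members, Hmgcs1, where it starts 137 bases before the start site. It was present in 1.51% of the 10326 tested genes with a window and in 1.24% of all 32851 windows. A CCAAT box, the site of the factor NF-Y that acts with SREBP2, was present in 21 of the 23 members and in 42.9% of tested genes. The printed Insig2 window holds 3 CCAAT boxes, and its 2 other RefSeq windows hold none. A GC box (GGGCGG) was found in 21 members, against 65.4% of tested genes. The E-box, which the clock factors CLOCK and BMAL1 bind, was found in Hsd17b7, Insig1, Dhcr7, Sc5d and Scap, 5 members of 23 against 11.5% of tested genes. The D-box (TTATGTAA) was in no member window, and the ROR element core (TAGGTCA) was in Dhcr7 alone among members. Both strands were searched and a gene counts once if any of its windows holds the letters. A match describes letters in a window and says nothing on binding. The lack of a match does not show that a site is absent, because only these exact letters in these windows were searched.

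A 24 h rhythm was found in 18 of the 30 members with limma (adjusted P below 0.05 over all genes tested), against 36.8% of the 14449 genes tested. The amplitude of the fitted cosine, which is the distance from the mean to the peak on the log2(value + 1) scale, had a median of 0.29 in the 30 members and 0.16 in all genes tested. Among genes that passed, it was 0.38 in the 18 members and 0.27 in all. This scale understates the amplitudes of low genes, which are part of all genes tested. All 30 members were among the 12480 genes with a mean value of at least 1. With these genes alone tested, 5325 passed, 19 of them members. The fitted peak lay in the 12 h from ZT18 to ZT6 in 14 of the 18, whereas 50.3% of all genes that passed (18.5% of those tested) peaked in that window. By role, 6 of 7 genes of the mevalonate and isoprenoid steps passed, 5 of 11 of the squalene to sterol steps, 2 of 4 of SREBP2 and its control and 5 of 8 of transport, storage and uptake.

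A test of any difference among the 6 time points passed in 13 members, against 29.2% of all genes, and in 22 members without liver 2 of ZT9. That liver and liver 1 of ZT13 stood apart in the synthesis enzymes, and further counts without them follow the account of the enzymes. In 25 members the 3 livers of the highest time point did not overlap the 3 of the lowest, which was also the case in 70.8% of all genes, and nothing is read from this count. The rhythm algorithms of the study were written again for these values, and their counts differ from those of the original software. Over all genes, JTK called 2039 here and the CircaN cosine 1621. Each is fewer than the study reported for these livers as called in common by all of its algorithms. JTK, which ranks values against cosine orders, called 7 members (14.1% of all genes), MC, which adds a Lomb–Scargle periodogram, called 8 (18.3%) and the cosine curve of CircaN called 6 (11.2%). Together they called 9 members, and the 5 called by each of them were Insig2, Hmgcs1, Pmvk, Scap and Soat2. With equal cosines taken as 1 group in its null distribution, JTK called 11 members (22.4%) and MC 11 (23.8%). Without that grouping, none of the 11 genes of the squalene to sterol steps was called by any of these algorithms as written here, whereas limma called 5. JTK called 4 members without liver 1 or 3 of ZT1 or liver 1 or 2 of ZT13 (12.0% to 13.0% of all genes in these fits). MC called 5 without liver 1 or 3 of ZT1 or liver 2 of ZT13 (15.7% to 16.9%). The CircaN cosine called 10 without liver 2 of ZT9 (11.7%).

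**Figure D1:**
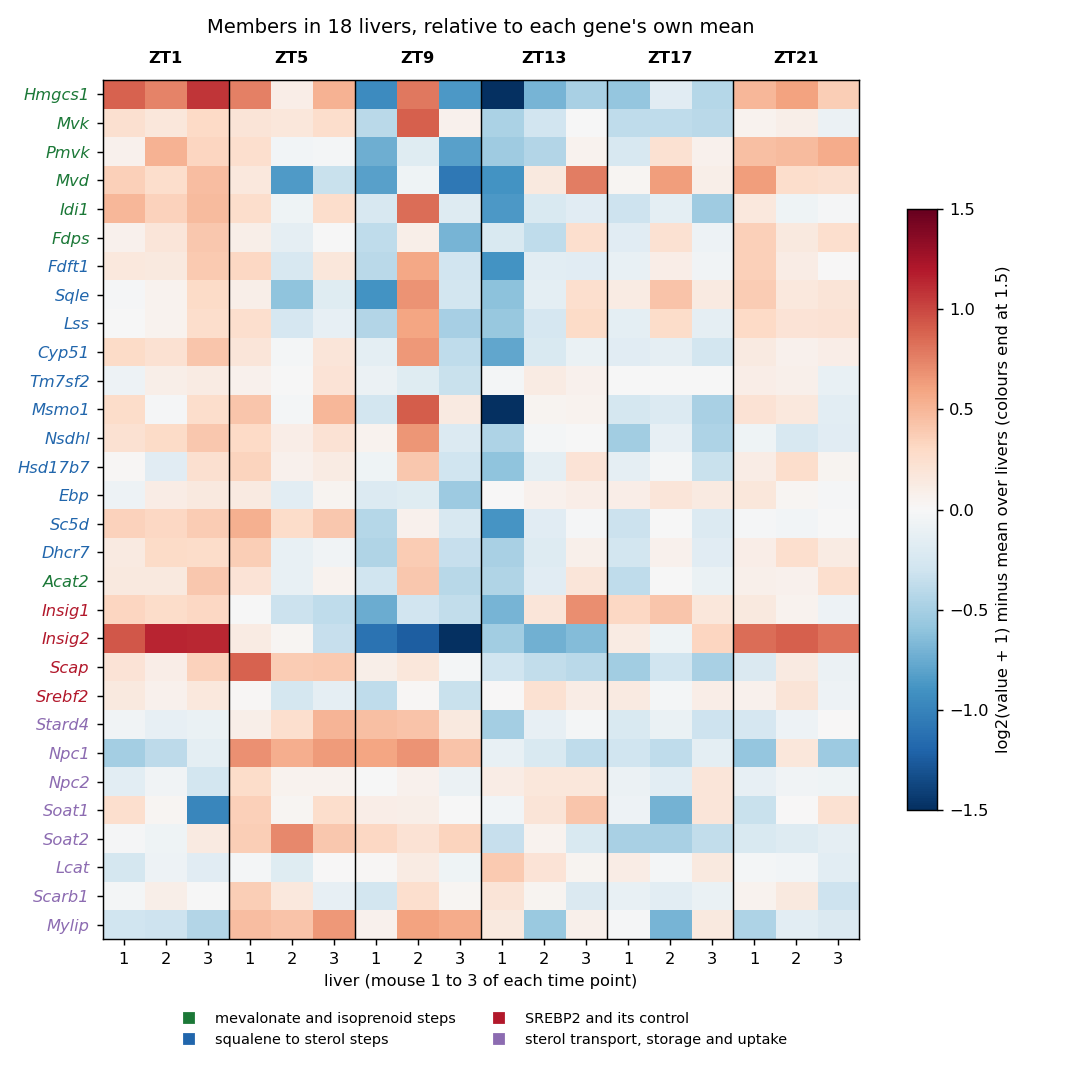
Log2(value + 1) of the 30 members (rows, coloured by role) in the 18 livers (columns, 3 mice at each of 6 zeitgeber times), each minus the mean of its gene over the livers. In the ZT1 livers 14, 16 and 18 of the 18 synthesis enzymes are above their mean, Insig2 has the widest range, and the second ZT9 liver is above the others of its time point in 17 of them.

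Among the enzymes of the early pathway, Hmgcs1, which joins acetyl-CoA and acetoacetyl-CoA, had the widest swing. Its values were 490.4, 446 and 559 at ZT1, 451, 286 and 382 at ZT5 and 138, 460.4 and 146 at ZT9. In the dark they were 57.7, 164 and 189.7 at ZT13, 178, 237 and 198 at ZT17 and 378, 405 and 345 at ZT21. The ZT1 livers were all above the ZT13 and ZT17 livers, and 1 ZT9 liver reached the ZT1 range while the other two were close to ZT13. The time point means were highest at ZT1 (499 ± 57.2, SD, n = 3) and lowest at ZT13 (137 ± 69.97), a ratio of 3.64. The fitted amplitude was 0.95 ± 0.15 (SE) with a peak at ZT1.02 ± 0.607 h (adjusted P = 0.000234, limma). The gene lies at chr13:119690379-119708260, plus strand (GRCm38), and its start is in the window printed above with the sterol regulatory element.

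The following steps, which phosphorylate mevalonate and turn it into isopentenyl diphosphate, had fitted peaks between ZT20.5 and ZT3.87, and whether these peaks differ was not tested. Pmvk (phosphomevalonate kinase) had 68.7, 69.6 and 73.9 at ZT21 and 29.5, 43.8 and 27.97 at ZT9, with no overlap, and 52.1, 71.8 and 62.5 at ZT1. Its values at the other times were 59.6, 48.4 and 48.7 at ZT5, 34.1, 36.4 and 51.6 at ZT13 and 41.9, 58.6 and 52.2 at ZT17. Its amplitude was 0.49 ± 0.07 and its peak ZT22.5 ± 0.5598 h (adjusted P = 0.000104, limma). Mvd (mevalonate diphosphate decarboxylase) was also lowest at ZT9, with 13.3, 23.1 and 10.99, and highest at ZT21, with 37.8, 29.3 and 28.8. Its ZT13 livers were far apart, at 12.5, 26.9 and 41.9, and so were those of ZT5, at 27.1, 12.97 and 19.04. Values of Mvd were 31.4, 29.3 and 33.9 at ZT1 and 24.7, 38.03 and 25.8 at ZT17. The amplitude of Mvd was 0.51 ± 0.13 with a peak at ZT20.5 ± 1.003 h (adjusted P = 0.016, limma), and this call was lost without liver 3 of ZT9, in 1 of 24 alternatives.

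Mvk (mevalonate kinase) peaked at ZT3.87 ± 0.983 h and Idi1, which isomerises isopentenyl diphosphate, at ZT2.74 ± 0.882 h, with amplitudes of 0.32 and 0.39 (adjusted P = 0.0139 and 0.00657, limma). The values of Mvk at ZT17 were tightly grouped (11.1 ± 0.0926) and those at ZT9 were not (18.3 ± 9.06), again with the second ZT9 liver at the top. Fdps, which makes farnesyl diphosphate, peaked at ZT22.4 ± 0.965 h with an amplitude of 0.27 (adjusted P = 0.0124, limma). Acat2, the cytosolic thiolase that makes acetoacetyl-CoA, did not pass (111 ± 12.1 at ZT1 and 84.5 ± 11.02 at ZT17, adjusted P = 0.0793, limma). Reads that match several genes were divided by estimation, so Acat2, which has a close copy in Acat3, and Idi1, with its paralogue Idi2, are less certain.

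**Figure D2:**
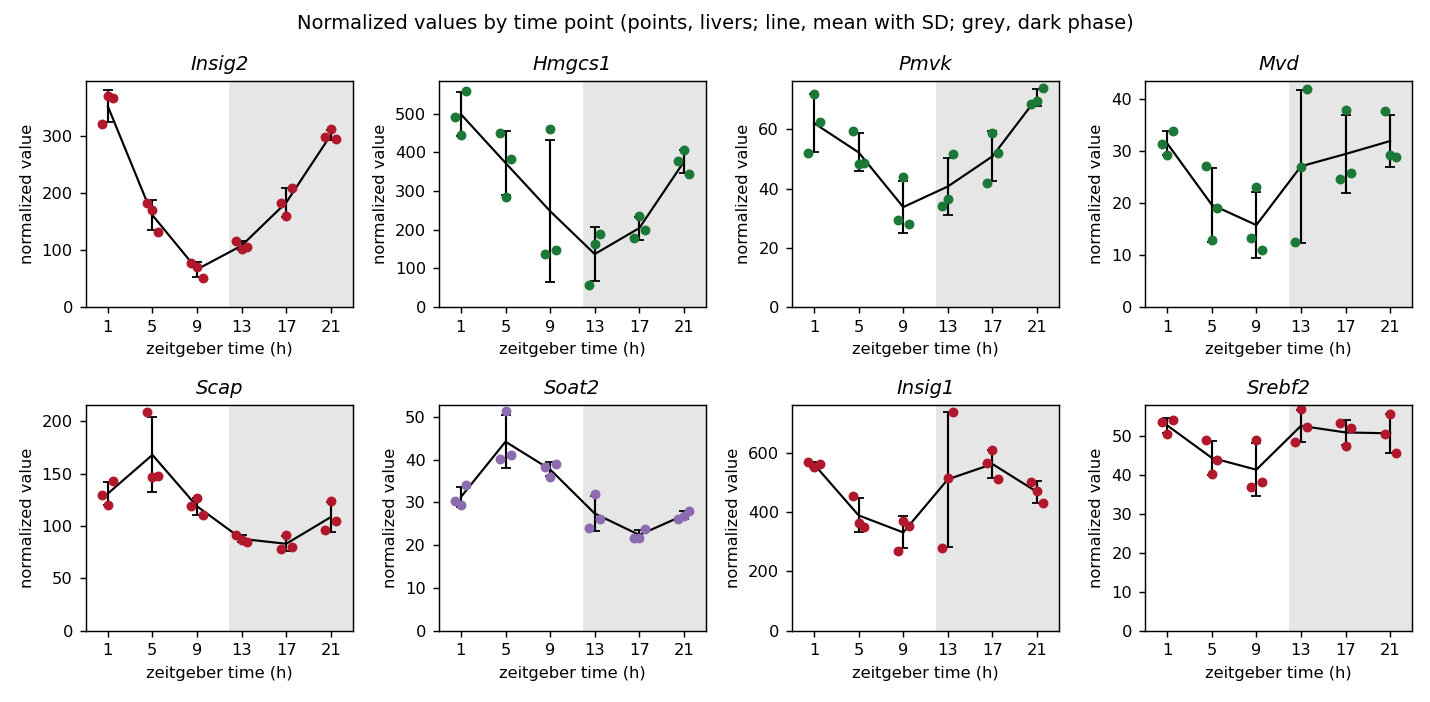
Normalized value (linear, from 0) against zeitgeber time for 8 members, with the 3 livers of each time point as points, the mean as a line and the SD as bars, and the dark phase in grey. Insig2 falls from 352 at ZT1 to 66.2 at ZT9 with little spread, while Hmgcs1 at ZT9 and Insig1 and Mvd at ZT13 have wide bars.

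In the second part of the pathway, from squalene to cholesterol, 5 of 11 genes passed. The median amplitude was 0.26, and it was 0.39 in the 7 earlier genes, a difference that was not tested. Sc5d, the lathosterol oxidase, had the widest swing, with 713, 597 and 651 at ZT5 and 267, 439 and 487 at ZT13, which do not overlap. Its amplitude was 0.38 ± 0.07 with a peak at ZT2.199 ± 0.692 h (adjusted P = 0.000836, limma). Nsdhl, which takes part in removing the methyl groups of lanosterol, had an amplitude of 0.33 and a peak at ZT4.504 ± 0.791 h (adjusted P = 0.00274, limma). Cyp51, the lanosterol demethylase, went from 221 ± 14.2 at ZT1 to 140.0 ± 32.5 at ZT13 (adjusted P = 0.0139, limma). Dhcr7, the last enzyme of the Kandutsch–Russell branch, had 97.3 ± 5.57 at ZT1 and 72.6 ± 14.2 at ZT13 (adjusted P = 0.038, limma), and 11 of 24 alternatives lost its call. Ebp, the sterol isomerase, had its highest mean at ZT17 (212 ± 5.59) and its lowest at ZT9 (156 ± 20.98, adjusted P = 0.0496, limma), and 16 of 24 alternatives lost its call.

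The 6 genes of these steps that did not pass were Fdft1 (squalene synthase), Sqle (squalene epoxidase), Lss (lanosterol synthase), Tm7sf2, Msmo1 and Hsd17b7. Their adjusted P ran from 0.0605 in Fdft1 to 0.449 in Tm7sf2. Sqle, the second rate-controlling enzyme of the pathway, had 45.6, 138 and 70.7 at ZT9, which include its lowest and its highest value of all livers. At ZT1 they were 84.7, 89.3 and 105, at ZT21 112, 96.2 and 98.3 and at ZT5 91.2, 56.2 and 75.7. Tm7sf2, a sterol reductase, was the flattest member, with an amplitude of 0.06. Msmo1, the methylsterol monooxygenase, had 117, 269 and 157 at ZT9 and 49.1, 147 and 148 at ZT13, so single livers set its time point means.

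The spread between mice was wider in the synthesis enzymes than in most genes. The median SD of log2(value + 1) within a time point was 0.266 for the 18 enzymes, 0.178 for the other 12 members and 0.137 for the 7531 genes with a mean value of at least 10. In the enzymes it was 0.488 at ZT9 and 0.370 at ZT13 but 0.129 at ZT1. The second ZT9 liver was the highest of its time point in 17 of the 18 enzymes and on average 1.45 times the mean of its time point. The first ZT13 liver was the lowest in 17 of 18, at 0.743 times the mean. At ZT17 the second liver was the highest in all 18, and at ZT5 the second was the lowest in all 18. Over the 7531 genes, the median absolute deviation from the time point mean (log2) was 0.0817 in the second ZT9 liver, inside the range of 0.0626 to 0.0909 of the other livers, and 0.101 in the first ZT13 liver, the highest of the 18. Insig2 did not follow the enzymes in the second ZT9 liver, where it lay between the other two.

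Without the second ZT9 liver, 22 members had a 24 h rhythm (34.7% of all genes) and 22 differed among time points (26.9%), against 18 and 13 with all livers. Fdft1, Sqle, Lss, Msmo1 and Acat2 then passed the 24 h test and Ebp did not. Sqle had an adjusted P of 0.00457 and an amplitude of 0.39 in that fit, in place of 0.135 and 0.27. Without the first ZT13 liver as well, the counts were 22 (32.3%) and 23 (24.5%). These 2 livers were picked for their enzyme values, so these fits only describe how far the counts rest on them. JTK, MC and the CircaN cosine each called 10 members without the second ZT9 liver, against 12.5%, 16.4% and 11.7% of all genes in the same fits.

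**Figure D3:**
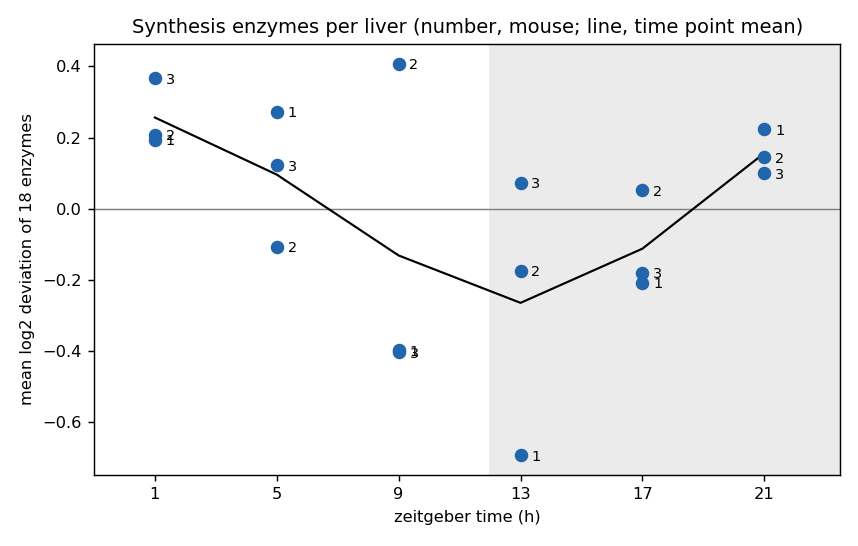
Mean over the 18 synthesis enzymes of log2(value + 1) minus the mean of each gene over all livers (vertical axis), for each liver (points, numbered by mouse within its time point) against zeitgeber time, with the time point mean as a line and the dark phase in grey. The second ZT9 liver is at 0.41 and the others of ZT9 at -0.40, and the first ZT13 liver is the lowest of all at -0.69.

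Insig2, one of the proteins that hold SCAP in the endoplasmic reticulum, had the widest swing of all members. Its values were 320.5, 370.3 and 367 at ZT1, 182, 171 and 131 at ZT5 and 77.2, 70.2 and 51.2 at ZT9. In the dark they were 116, 101 and 106 at ZT13, 182, 159.5 and 209 at ZT17 and 299, 313 and 295 at ZT21. The livers of ZT1, of ZT21 and of ZT9 each overlapped with those of no other time point. The ratio of the ZT1 to the ZT9 mean was 5.32, the amplitude 1.13 ± 0.08 and the peak ZT22.5 ± 0.273 h (adjusted P = 1.71e-08, limma). Insig2 changed in 5 of the 6 intervals of 4 h, falling to 0.456 times from ZT1 to ZT5 and to 0.412 times from ZT5 to ZT9, then rising 1.64-, 1.69- and 1.65-fold in each of the next 3 intervals. It also had a 12 h term with an amplitude of 0.27 (adjusted P = 0.0484, limma). The gene lies at chr1:121304353-121332589, minus strand.

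Insig1, the other member of the pair, had 569, 551 and 563 at ZT1, 454, 363 and 349 at ZT5 and 270.1, 371 and 353 at ZT9. Its values in the dark were 280.0, 515 and 736 at ZT13, 564, 609 and 513 at ZT17 and 502, 472 and 429.8 at ZT21. Thus the ZT13 livers alone covered most of the range. The 24 h test missed the threshold (amplitude 0.31 ± 0.10, peak ZT19.9 ± 1.23 h, adjusted P = 0.0508, limma), and 8 of 24 alternatives passed it.

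Scap, the escort of SREBP2, ran on a daytime phase. It had 209, 147 and 148 at ZT5 and 78.2, 91.5 and 79.7 at ZT17, with 129.6, 121 and 143 at ZT1 and 119.5, 127 and 110.5 at ZT9. At ZT13 it had 91.5, 87.2 and 84.9 and at ZT21 96.4, 124 and 105. All livers of the light phase were above those of ZT13 and ZT17. Its amplitude was 0.46 ± 0.05 and its peak ZT3.96 ± 0.422 h (adjusted P = 3.81e-06, limma), and it fell from ZT5 to ZT9 (0.718 times) and from ZT9 to ZT13 (0.741 times).

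Srebf2, the gene of SREBP2 itself, moved little. Its values were 53.6, 50.7 and 54.1 at ZT1, 49, 40.4 and 43.98 at ZT5 and 36.9, 49.2 and 38.2 at ZT9. In the dark they were 48.6, 56.99 and 52.4 at ZT13, 53.4, 47.5 and 52.1 at ZT17 and 50.7, 55.8 and 45.8 at ZT21. Its highest time point mean was 1.28 times its lowest, and the 24 h test missed the threshold (amplitude 0.14 ± 0.05, adjusted P = 0.0706, limma). The step from ZT9 to ZT13 alone passed, with a rise of 1.27-fold (adjusted P = 0.0420, limma).

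The ratio of 2 members within a liver does not depend on the scaling of the library. The 3 pairs examined were chosen after the values had been seen, so no test result is given for them. Insig2 over Insig1 was 0.648 ± 0.0470 (SD, n = 3) at ZT21 and 0.207 ± 0.0719 at ZT9, with single livers from 0.144 to 0.686. Hmgcs1 over Sqle was 5.36 ± 0.399 at ZT1 and 1.67 ± 0.563 at ZT13. At ZT9 the 3 livers had ratios of Hmgcs1 to Sqle of 3.01, 3.34 and 2.07, so the liver with high enzymes was near the others, and both genes were high in it together.

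**Figure D4:**
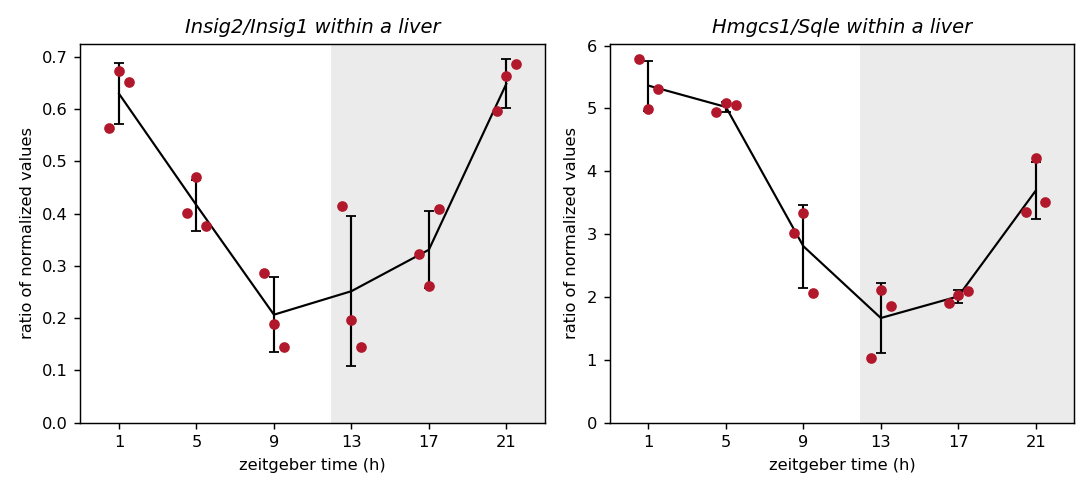
Ratio of normalized values within a liver against zeitgeber time for Insig2 over Insig1 and Hmgcs1 over Sqle, with livers as points, the mean as a line, the SD as bars and the dark phase in grey. Insig2 over Insig1 is lowest at ZT9 (0.207) and highest at ZT21 (0.648), and Hmgcs1 over Sqle falls from 5.36 at ZT1 to 1.67 at ZT13.

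The relation of the other 29 members to Srebf2 was examined over the 18 livers by Pearson's r and Spearman's rho on log2(value + 1), with 100000 permutations and adjustment over the 29. Pooled over time points, 22 had a positive r and 3 passed. Mvd had r = 0.74 (permutation P = 0.00087, adjusted 0.0168) and rho = 0.54 (permutation P = 0.0217, adjusted 0.210). Insig1 had r = 0.70 (permutation P = 0.00116, adjusted 0.0168) and rho = 0.69 (permutation P = 0.00217, adjusted 0.0629). Ebp had r = 0.69 (permutation P = 0.00219, adjusted 0.0212) and rho = 0.42 (permutation P = 0.0828, adjusted 0.343). None passed by rho, although 5 had an unadjusted permutation P below 0.05. Without the 2 livers farthest from the median of Srebf2, which are livers 1 and 3 of ZT9, r was 0.55, 0.56 and 0.39, and 13 of the 29 had a positive r. The sign changed in 9 members, none of which had passed. Leaving out 1 liver at a time gave between 0 and 9 members with an adjusted P below 0.05, the fewest without liver 1 of ZT9 and the most without liver 2 of ZT13. As deviations from the time point means, 28 of 29 had a positive r with a median of 0.50, and none passed the adjustment (8 had an unadjusted permutation P below 0.05), the lowest adjusted P being 0.141 in Fdft1, Hmgcs1 and Msmo1. In that form 27 had a positive r without the 2 farthest livers, which are then livers 1 and 2 of ZT9. The 29 relations share the same 18 livers, so they are not independent of each other. The shares of all genes with a positive r to Srebf2, or that pass, were not computed. These counts are therefore not shown to be particular to the members.

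Among the genes of transport, storage and uptake, 5 of 8 passed and 4 of them peaked in the light. Soat2, which esterifies cholesterol in the hepatocyte, had 40.2, 51.3 and 41.04 at ZT5, 38.3, 35.9 and 38.9 at ZT9 and 30.4, 29.3 and 33.99 at ZT1. In the dark it had 23.99, 32.03 and 26.2 at ZT13, 21.8, 21.7 and 23.7 at ZT17 and 26.1, 26.9 and 28.1 at ZT21. The livers of ZT5 and ZT9 lay above all livers of the dark. Its amplitude was 0.43 ± 0.05 and its peak ZT5.71 ± 0.417 h (adjusted P = 3.27e-06, limma). Soat1, its counterpart in most other tissues, had values of 1.30 to 5.08 and did not pass (adjusted P = 0.41, limma).

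Npc1, which exports cholesterol from lysosomes, had 165, 149 and 159.9 at ZT5 and 154, 163 and 138 at ZT9, against 71.3, 77.5 and 91.8 at ZT1. The dark livers were between 67.9 and 115, so the livers of ZT5 and ZT9 lay above all the others. Npc1 rose 1.97-fold from ZT1 to ZT5 (adjusted P = 0.000441, limma), fell to 0.574 times from ZT9 to ZT13 (adjusted P = 0.00186, limma) and had a 12 h term of amplitude 0.30 (adjusted P = 0.039, limma). Its lysosomal partner Npc2 did not pass (amplitude 0.11, adjusted P = 0.114, limma). Mylip, a ubiquitin ligase that degrades lipoprotein receptors, rose 1.82-fold from ZT1 to ZT5 and had 11.2 ± 1.06 at ZT5 and 5.7 ± 0.338 at ZT1 (24 h, adjusted P = 0.00811, limma). Stard4, a sterol carrier of the cytosol, was highest at ZT9 (189 ± 21.2) and fell to 0.678 times from ZT9 to ZT13 (24 h, adjusted P = 0.00333, limma). Lcat, the plasma enzyme that esterifies cholesterol on lipoproteins, was the 1 member with a peak in the first hours of the dark (ZT13.2 ± 0.807 h, amplitude 0.17, adjusted P = 0.00323, limma). Scarb1, the receptor for high density lipoprotein, did not pass (amplitude 0.09, adjusted P = 0.362, limma).

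**Figure D5:**
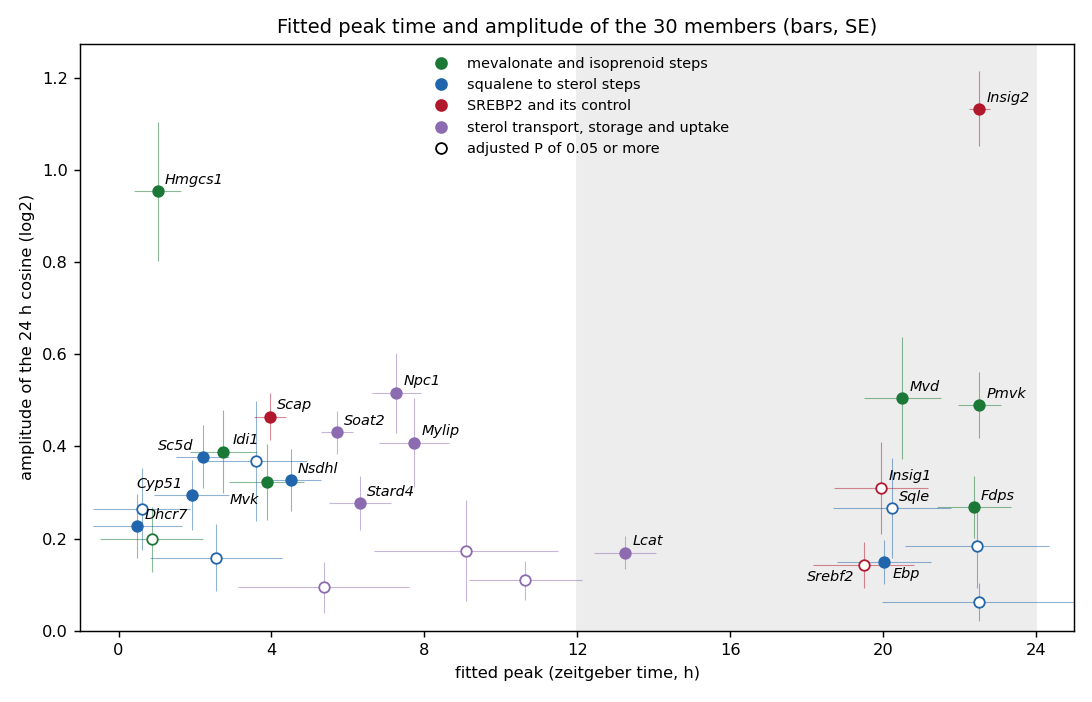
Amplitude of the fitted 24 h cosine (log2, vertical axis) against its peak (zeitgeber time) for the 30 members, coloured by role, with SE as bars, filled where the adjusted P was below 0.05 and the dark phase in grey. Insig2 and Hmgcs1 stand above the rest at 1.13 and 0.95, enzymes lie around the change from dark to light, and Npc1, Mylip, Stard4 and Soat2 lie between ZT5.7 and ZT7.7.

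Between neighbouring time points, the 30 members made 15 changes with an adjusted P below 0.05. From ZT9 to ZT13, the step over lights off, 3 rose (Ebp, Insig2 and Srebf2; 5.70% of all genes rose) and 4 fell (Scap, Stard4, Npc1 and Soat2; 5.41% fell). From ZT1 to ZT5, 3 rose (Npc1, Soat2 and Mylip; 3.12%) and 1 fell (Insig2; 3.19%). From ZT5 to ZT9, 2 fell (Insig2 and Scap; 1.25%). Insig2 alone changed from ZT13 to ZT17 (1.11% of all genes rose) and from ZT17 to ZT21 (1.31%). From ZT21 to ZT1 no member passed in limma, against 0.201% of all genes, and 3 had an unadjusted P below 0.05. The Hmgcs1 steps did not pass singly, although its 24 h cosine did. A 12 h term passed in 2 members, Insig2 and Npc1, against 1.22% of all genes. With 1 liver left out, the count was 0 in 7 fits, 1 in 9 and 2 in 2.

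Taking the 9 livers of each phase together, 11 members were lower in the dark and 2 were higher, with 12.9% of all genes called in each direction. The lower ones were Hmgcs1, Mvk, Idi1, Cyp51, Nsdhl, Sc5d, Scap, Stard4, Npc1, Soat2 and Mylip, and the higher ones were Ebp and Insig2. The log2 difference of dark minus light was -0.53 ± 0.06 (SE) in Soat2 (adjusted P = 7.04e-06, limma), -0.57 ± 0.07 in Scap (adjusted P = 1.27e-05, limma) and -0.68 ± 0.22 in Hmgcs1 (adjusted P = 0.0324, limma). The rises of Ebp and Insig2 were small (0.17 ± 0.06 and 0.23 ± 0.08). On the linear scale Insig2 had means of 198 in the dark and 193 in the light, and its highest time point, ZT1, lies in the light. With each liver rescaled to a sum of 1000000, which moved the median of all genes by -0.06 (log2) between dark and light, 12 members were lower and none was higher, and of all genes 2571 were lower and 1180 higher, in place of 1858 and 1857. Without liver 1 of ZT21, 8 members differed between the phases in place of 13. The share of all genes in that fit is not given here, so a general loss of calls cannot be told from a loss in the members.

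Levels were compared between genes only per kilobase of exon, as the mean over the 18 livers, and the exon length counts all exons of a gene, so it may exceed that of the main transcript. Lcat was highest at 209 per kilobase, followed by Insig1 at 152 and Sc5d at 104. Insig2 was at 56.3 and Hmgcs1 at 66.6, and Insig1 was the higher of the INSIG pair on this scale. Srebf2 was at 6.80 and Scap at 15.6. Soat1 was the lowest at 0.374, with Soat2 at 14.3.

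Of the 7 lists of cell type markers, that of hepatocytes had sums between 70652 and 101237, and the 2 pancreatic acinar genes measured summed to at most 15.3. The 8 Kupffer cell genes, which mark the resident macrophages of the liver, summed to a mean of 277 at ZT5, 276 at ZT9 and 167 at ZT21, with single livers from 124.7 to 323. All 8 were lowest at ZT21 and 4 passed the 24 h test, against 36.8% of all genes tested. The 6 sinusoidal endothelial genes had 214 at ZT5 and 143 at ZT21, and 3 passed. Like Npc1, Mylip, Stard4 and Soat2, these 2 lists were higher at ZT5 and ZT9 than at ZT21. Their courses differed at ZT13, where the sums were 253 and 186 while Npc1, Stard4 and Soat2 had fallen from ZT9. The part of these lists in the results of the 4 genes was not tested. The hepatocyte sum was lowest at ZT9, with a mean of 72969 against 85676 to 93900 at the other times, and 3 of its 7 genes passed. Most of that sum was Alb, with 52953 at ZT9, which did not pass (adjusted P = 0.439, limma). Of the 7 genes, 4 had their lowest mean at ZT9, 2 at ZT1 and 1 at ZT17. Hnf4a had 546 at ZT9 and 453 at ZT1. In stellate cells and fibroblasts 2 of 6 passed, in cholangiocytes 3 of 5, in pancreatic acinar cells 0 of 2 and in blood and lymphoid cells 0 of 4 (limma; 0 and 1 at an unadjusted P below 0.05). Over the 7 lists 15 of 38 measured markers passed, near the share of all genes, and nothing is read from these counts. Fewer cells of a type and less RNA per cell cannot be told apart in whole liver.

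Around the members, a wider list of 50 genes of sterol metabolism was chosen by role, of which 47 were measured and 24 had a 24 h rhythm, against 36.8% of all genes tested. By group, 2 of 10 genes of the nonsterol branches of the pathway passed, 8 of 11 of SREBP cleavage and sterol-linked degradation in the endoplasmic reticulum, 3 of 8 other SREBP2 targets, 6 of 8 of oxysterol receptors and efflux, and 5 of 10 of lysosomal and endoplasmic sterol transfer. Of the 47, 10 were higher and 10 lower in the dark, against 12.9% of all genes in each direction. The 8 other SREBP2 targets did not share the phase of most synthesis enzymes. Of these targets, 5 had their highest mean at ZT13, and 2 were higher and 0 lower in the dark. The widest swings were in Abcg8 and Abcg5, which together export sterols into bile. Abcg8 had 120.0 ± 16.9 (SD, n = 3) at ZT5 and 24.4 ± 3.801 at ZT17, with an amplitude of 1.13 and a peak at ZT6.63 (adjusted P = 5.14e-10, limma). Abcg5 had an amplitude of 0.93 and a peak at ZT7.97 (adjusted P = 1.39e-08, limma). Rnf145, a ubiquitin ligase of the endoplasmic reticulum, followed with 0.71 at ZT9.33, then Syvn1, another such ligase, with 0.70 at ZT17.3. Srebf1, the gene of the lipogenic factor SREBP1, had 0.57 at ZT11.9 and Abcg1, an exporter of cholesterol, 0.48 at ZT7.14.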

How the data were processed

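RNA of 18 whole livers was sequenced on a HiSeq2500. Per the labels and the study's methods, the authors removed adapters with Cutadapt (after CASAVA 1.8.2), mapped reads to the GRCm38 transcriptome, estimated counts with RSEM 1.2.20 and normalized them with limma. The deposited values are a linear signal that the authors made from these counts. From the values, each is an estimated count plus 0.5 reads on a scale of 1000000 reads of an effective library size. Between 41.1% and 50.0% of values per liver were whole reads (within 0.01 reads), so no count test was used, and 0 columns lacked a sample. The value at 0 reads is set by depth, and 809 genes were at it in at least 1 liver, none of them a member.

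Values were analysed as log2(value + 1) with limma 3.58.1 in R 4.3.3 (eBayes with trend) over the 14449 genes above the lowest value in at least 1 liver: a 24 h cosine, a 24 h plus 12 h model, and 6 time point means with contrasts, each adjusted by Benjamini–Hochberg over all genes. Log2 fold changes understate those of low genes. JTK, MC and CircaN (R-squared of at least 0.7) used periods of 20 to 28 h, were written again in Python 3.11.15 with numpy 2.4.6 and scipy 1.17.1, and for CircaN only the cosine was fitted, because the constants of its other curves are not given in the sources used here. Gene positions and exon lengths are from GENCODE M21 and promoters from RefSeq.

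Tested on data simulated from the 14449 genes, the 24 h limma test recovered 22, 49, 49 and 50 of 50 genes with amplitudes of 0.25, 0.5, 1 and 1.5 (log2) and called 3 flat genes. In that simulation 200 genes had a rhythm, against 5320 called in the livers, and noise was drawn separately for each gene. Its rates therefore do not carry over to the members, whose enzymes moved together in single livers. The members, lists, rules and tests were chosen with earlier results of these data known. Named per liver are the 6 rhythmic members with the widest ratio of time point means and the genes of the SREBP2 switch, and from the wider list at most the 8 genes with the largest amplitude, of which 6 are named. Values of single livers of Sqle, Msmo1, Sc5d and Npc1 are also given, chosen after they were seen. Livers are separate mice per the labels. Alternatives were the pseudocount of 0.1, a filter at a mean of 1, 2 rescalings, eBayes without trend and leaving out livers.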

Additional observations from a re-analysis of the deposited data

How the results depend on the processing

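No paired analysis was possible because the livers of different time points come from different mice and their numbers only follow the order of the samples. No 24 h fit of a member that had passed reversed its direction, whereas r to Srebf2 changed sign in 9 of 29 members without the 2 farthest livers. Of the 30 members, 15 had a 24 h rhythm under all 24 alternatives, 5 under none and 10 under some (Mvd, Dhcr7, Ebp, Insig1, Fdft1, Msmo1, Acat2, Sqle, Lss and Srebf2). The 24 h count of 18 ran from 15 to 22 with 1 liver left out and from 16 to 22 in the other settings. The count of members that differ among time points (13) ran from 11 to 22 with 1 liver left out, the highest without liver 2 of ZT9, was 10 with eBayes without trend, and was 23 without that liver and liver 1 of ZT13, a setting chosen after the data were seen. The dark against light count (13) ran from 8 (without liver 1 of ZT21) to 14 (without liver 1 of ZT9) with 1 liver left out, and from 9 (eBayes without trend) to 15 (without both livers) in the other settings. The 12 h count (2) ran from 0 to 2 with 1 liver left out, was 1 after rescaling by the median of ratios or to a sum of 1000000 and without both livers, and was 0 with eBayes without trend. The JTK count (7) was 11 when equal cosines were taken as 1 group, and ran from 4 (without livers 1 or 3 of ZT1 or livers 1 or 2 of ZT13) to 10 (without liver 2 of ZT9). The MC count (8) ran from 5 (without livers 1 or 3 of ZT1 or liver 2 of ZT13) to 10 (without liver 2 of ZT9) with 1 liver left out and from 8 to 11 in the other settings. The CircaN cosine count (6) ran from 5 (without any 1 of the ZT1 livers) to 10 (without liver 2 of ZT9) with 1 liver left out and from 5 to 10 in the other settings, 10 being without both livers. The 3 relations to Srebf2 ran from 0 (without liver 1 of ZT9) to 9 (without liver 2 of ZT13) and were 5 without both livers. The cause of these changes was not tested beyond the smaller number of livers. Rescaling to a sum of 1000000 moved the median of all genes by -0.10 to 0.08 (log2) per liver. Soat1 had the lowest values of the members.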
